A study of Homo sapiens with 8 samples.

Results

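Cancer-testis antigens are genes that are normally read in the male germ line and often reappear in tumours, and 69 of the 35238 rows of the count table belong to the families examined here. The rows were chosen by gene symbol alone: the MAGEA, MAGEB, MAGEC, SSX, GAGE, XAGE, PAGE and CTAG families, together with PRAME, DAZL, DDX4, MAEL and TEX101. By family there were 13 MAGEA, 10 MAGEB, 3 MAGEC, 3 CTAG, 13 GAGE, 6 PAGE, 5 XAGE, 11 SSX and 5 other genes. Of the 66 that could be placed in GENCODE 29 (GRCh38), 61 lie on the X chromosome and 5 on autosomes, and SSX6, SSX8 and SSX9 were not matched.

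RNA was sequenced from MP38, a BAP1-mutant uveal melanoma cell line, in 8 libraries from 4 groups of 2. Every group was exposed for 24 h: control cells to 0.1% DMSO, and drug-treated cells to romidepsin at 40 nM, quisinostat at 40 nM or mivebresib at 1200 nM, in medium that per the study's methods held the same share of DMSO. Romidepsin, a cyclic depsipeptide, and quisinostat, a hydroxamate, inhibit histone deacetylases (HDACs), whereas mivebresib blocks the acetyl-lysine pocket of BET proteins. The 2 libraries of a group came from separate wells of this single line, so a p-value here measures the spread between wells. The study asked how epigenetic inhibitors alter expression in uveal melanoma cells, and the question for these genes is which stay silent and which are switched on.

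In most adult tissues the X-linked cancer-testis genes are kept off by DNA methylation of their promoters and by repressor complexes that include histone deacetylases. MAGE proteins share a MAGE homology domain through which several of them bind RING-type ubiquitin ligases. In melanoma these proteins are known mainly as T cell targets, and PRAME, a substrate receptor of a cullin ligase, is a recognised marker of metastatic risk in uveal melanoma.

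Library totals lay between 28483235 and 29359024 counts, and 3 counts, the upper limit that an observed 0 allows, correspond to 0.095 to 0.11 CPM (counts scaled to a common effective library size). Such limits and all ratio intervals cover counting error only. Of 6 melanocytic markers PMEL, MLANA, SOX10 and MITF had at least 1468 counts in every library, whereas TYR had 42 to 111 and DCT at most 5. Their summed level moved with the groups: 1210 to 1340 CPM in the control libraries, 1200 to 1220 with romidepsin, 814 to 879 with quisinostat and 613 to 624 with mivebresib. Of 5 markers of other cells, EPCAM had at most 5 counts, ALB at most 2, PTPRC at most 11 and PECAM1 at most 17, and COL1A1 ran from 28 to 327. Their sum was 1.63 to 1.97 CPM in control, 4.34 to 5.5 with romidepsin, 8.98 to 11.2 with quisinostat, most of it COL1A1, and 1.35 to 2.16 with mivebresib. The 2 control libraries differed more from each other than other pairs did (chi-square per degree of freedom 58.1, against 9.52 to 9.79 in the drug groups).

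The bases upstream of the transcription start are shown for 8 of the genes described here, MAGEA10 not among them, since CpG methylation at these starts is the textbook switch of the class. Each sequence is the 250 bases before a RefSeq start (GRCh38.p14), written 5′ to 3′ on the gene's own strand, with each CpG in capitals. The first 2, at chrX:152698544-152698793 (plus strand) and chrX:152733612-152733861 (plus strand), precede genes that were already high in control cells.
MAGEA3: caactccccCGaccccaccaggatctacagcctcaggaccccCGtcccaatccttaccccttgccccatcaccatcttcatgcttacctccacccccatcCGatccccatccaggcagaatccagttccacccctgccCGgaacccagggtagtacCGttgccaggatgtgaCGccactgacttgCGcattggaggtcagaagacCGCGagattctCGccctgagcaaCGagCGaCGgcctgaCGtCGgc
MAGEA12: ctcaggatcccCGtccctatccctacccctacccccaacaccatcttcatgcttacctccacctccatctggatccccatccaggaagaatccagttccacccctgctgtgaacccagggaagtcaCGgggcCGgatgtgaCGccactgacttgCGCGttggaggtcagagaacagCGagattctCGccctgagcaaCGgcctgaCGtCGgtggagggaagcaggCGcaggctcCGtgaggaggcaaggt
The next 4, at chrX:26138093-26138342 (plus), chrX:26192190-26192439 (plus), chrX:141903644-141903893 (plus) and chrX:142205291-142205540 (minus), precede genes that were higher with quisinostat.
MAGEB18: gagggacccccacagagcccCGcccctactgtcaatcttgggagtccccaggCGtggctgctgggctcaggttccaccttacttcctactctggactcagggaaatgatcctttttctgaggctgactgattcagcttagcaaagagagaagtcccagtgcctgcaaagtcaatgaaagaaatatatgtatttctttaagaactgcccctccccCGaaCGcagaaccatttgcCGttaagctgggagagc
MAGEB6: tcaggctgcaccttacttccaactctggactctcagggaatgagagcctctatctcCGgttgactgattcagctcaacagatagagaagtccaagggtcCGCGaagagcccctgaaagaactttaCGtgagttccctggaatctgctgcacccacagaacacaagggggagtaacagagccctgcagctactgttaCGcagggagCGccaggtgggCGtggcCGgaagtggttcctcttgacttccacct
MAGEC1: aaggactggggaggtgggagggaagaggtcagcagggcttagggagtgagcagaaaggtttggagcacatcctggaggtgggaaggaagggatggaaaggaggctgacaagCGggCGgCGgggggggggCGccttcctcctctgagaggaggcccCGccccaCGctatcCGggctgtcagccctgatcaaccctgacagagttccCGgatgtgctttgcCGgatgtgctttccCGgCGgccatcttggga
MAGEC2: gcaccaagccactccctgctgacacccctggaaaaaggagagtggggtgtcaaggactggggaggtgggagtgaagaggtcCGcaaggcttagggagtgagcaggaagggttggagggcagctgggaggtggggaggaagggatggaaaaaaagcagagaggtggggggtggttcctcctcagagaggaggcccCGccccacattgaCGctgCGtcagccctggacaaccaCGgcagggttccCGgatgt
The last 2 precede a gene without a single count in any library, at chrX:151918038-151918287 (plus), and the autosomal gene that fell with mivebresib, at chr22:22559266-22559515 (minus).
MAGEA4: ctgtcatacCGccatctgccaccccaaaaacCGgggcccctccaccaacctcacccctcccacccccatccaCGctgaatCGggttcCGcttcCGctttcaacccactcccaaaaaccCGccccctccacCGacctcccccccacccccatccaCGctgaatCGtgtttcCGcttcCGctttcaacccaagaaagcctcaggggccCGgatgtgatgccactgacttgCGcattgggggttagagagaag
PRAME: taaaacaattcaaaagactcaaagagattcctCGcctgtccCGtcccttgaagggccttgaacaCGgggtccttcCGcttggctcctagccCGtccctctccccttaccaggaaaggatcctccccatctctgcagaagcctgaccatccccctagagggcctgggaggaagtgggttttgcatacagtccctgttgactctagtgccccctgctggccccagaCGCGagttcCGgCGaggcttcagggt
The MAGEA6 stretch was identical to that of MAGEA3 in 250 of 250 bases. MAGEA12 shared runs of up to 25 bases with MAGEA3, MAGEC1 shared runs of up to 20 with MAGEC2, and MAGEB18 shared at most 14 with MAGEB6. MAGEA4, which had no count, shared runs of up to 20 with MAGEA3 and 15 with MAGEA12. These windows held 15 CpG in MAGEA3, 13 in MAGEA12, 14 in MAGEA4 and 9 in PRAME, against 5 in MAGEB18, 8 in MAGEB6, 11 in MAGEC1 and 6 in MAGEC2. MAGEA12, MAGEA4 and PRAME had several starts, and a start with the most CpG is shown. Over the slightly longer window used below, their starts held 9 and 15 CpG in MAGEA12, 10 to 15 in MAGEA4 and 4, 12 and 13 in PRAME. No choice arose for MAGEA3, MAGEB18, MAGEB6, MAGEC1 and MAGEC2. The contrast in CpG therefore depends in part on that choice.

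Most of the families were silent and remained so. A gene was called silent in a group at 3 counts or fewer in both libraries and detected at 10 or more in both. In control cells 57 of the 69 genes were silent, 6 were detected and 6 lay between, while 55.5% of all 35238 rows were silent and 37.8% detected. With romidepsin 55 were silent and 8 detected (53.9% and 39.3% of all rows). With mivebresib the numbers were 55 and 6 (54.5% and 38.4%), and with quisinostat 49 and 13 (51.5% and 41.3%). Across all 8 libraries 48 genes never exceeded 3 counts (49.2% of all rows did so), and 28 of them had no count at all (35.1% of all rows).

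**Figure D1:**
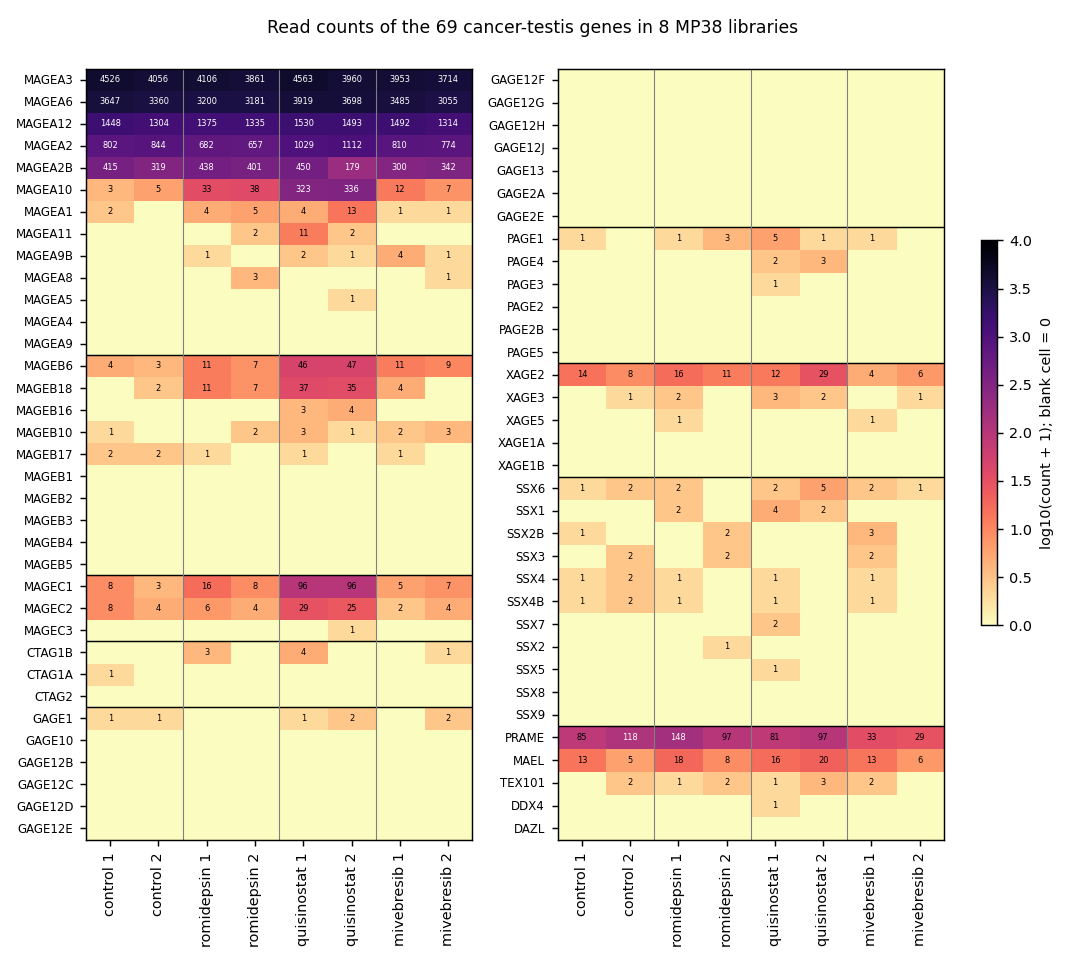
Read counts of the 69 genes (rows, grouped by family with black lines) in the 8 libraries (columns, 2 per group). Colour is log10(count + 1), the number is the count and an empty cell is 0, so the dark rows are the 5 MAGEA genes present in all libraries and the rows that darken in the quisinostat columns are MAGEA10, MAGEB6, MAGEB18, MAGEC1 and MAGEC2.

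The GAGE family, small X-linked antigens encoded by tandem copies, was silent by the count rule in all 4 groups. Its 13 rows together had at most 2 counts in a library, all of them in GAGE1, and the other 12 had 0 in all 8. The 6 PAGE genes summed to between 0 and 8 counts, with PAGE2, PAGE2B, PAGE3, PAGE4 and PAGE5 never above 3. CTAG1A and CTAG1B encode NY-ESO-1, a widely used immunotherapy target, and with CTAG2 they summed to at most 4. The 11 SSX genes, transcriptional repressors known from the SYT-SSX fusions of synovial sarcoma, summed to between 1 and 11 counts per library. SSX2, SSX2B, SSX3, SSX4, SSX4B, SSX5, SSX7, SSX8 and SSX9 never exceeded 3, and SSX4 and SSX4B, which are near-identical, carried the same count in all 8 libraries. Apart from XAGE2, the XAGE genes (XAGE1A, XAGE1B, XAGE3 and XAGE5) had between 0 and 3 counts in sum. Many of these rows are near-copies: apart from GAGE1 (14.2%) and GAGE10 (55.5%), every GAGE row shares at least 93.4% of its 31-base stretches of transcript with other genes. SSX2, SSX4 and XAGE1A share 100%, and CTAG1A 92.5%. How reads that fit several copies were counted is not given, so a low count in such rows does not show that RNA was absent.

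Within the MAGE families MAGEA4, MAGEA5, MAGEA8, MAGEA9, MAGEB1, MAGEB2, MAGEB3, MAGEB4, MAGEB5, MAGEB10, MAGEB17 and MAGEC3 also stayed at 3 counts or fewer everywhere. Among them MAGEA9 shares 96.2% of its 31-base stretches with other genes, so the same limit holds for it. The germ cell genes DAZL and DDX4, an RNA-binding protein and an RNA helicase that mark germ cells, had 0 counts and a single count in the 8 libraries, and TEX101, a sperm surface protein, had at most 3. Summed, the 48 genes gave 8 and 12 counts in control cells, 7 and 12 with romidepsin, 18 and 13 with quisinostat and 13 and 7 with mivebresib. The quisinostat libraries were the highest pair but differed from the others by a few counts in all.

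In 8 genes a count rose above 3 in some library without reaching 10 in both libraries of any group: CTAG1B, MAGEA1, MAGEA9B, MAGEA11, MAGEB16, PAGE1, SSX1 and SSX6. Their highest counts in any library ran from 4 to 13. MAGEA1, the first human tumour antigen found with T cells, had 2 and 0 counts in control cells, 4 and 5 with romidepsin, 4 and 13 with quisinostat and 1 and 1 with mivebresib. Its summed ratio of quisinostat to control was 7.50 (95% counting interval 1.78 to 67.0), but the 2 quisinostat libraries were far apart. MAGEA11, a coregulator of the androgen receptor, had 11 and 2 counts with quisinostat, 0 and 2 with romidepsin and 0 in the other 4 libraries.

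Read by the strict rule, silent in the control and detected with a drug, 1 of the 57 silent genes was turned on by quisinostat, MAGEB18, and none by romidepsin or mivebresib. Among all rows silent in the control, 1.9% were turned on by quisinostat, 0.353% by romidepsin and 0.22% by mivebresib. Several genes had a few counts in control cells and so lay outside the rule. With the control limit widened to fewer than 10 counts, an alternative chosen after seeing the data, quisinostat brought 5 of 61 genes to detection (MAGEA10, MAGEB18, MAGEB6, MAGEC1 and MAGEC2) against 4.31% of all such rows, romidepsin 1 (MAGEA10) against 1.65%, and mivebresib none against 1.34%. Leaving out 1 library loosens the strict rule, so its count could only stay or rise. For quisinostat it was 3 without the first control library (2.63% of all rows silent in the control) and 2 without the second (2.55%). Without the first or second quisinostat library it was 2 (2.38% and 2.43%). For romidepsin it was 1 without the second control (0.666%) or the second romidepsin library (0.618%).

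Changes in level were tested with edgeR's quasi-likelihood test over the 15085 rows that passed the filter on low counts, and a gene was called at a Benjamini-Hochberg adjusted p below 0.05 with a log2 fold change (log2 FC) beyond 1.5 in either direction. Of the 69 genes 13 passed that filter: MAGEA2, MAGEA2B, MAGEA3, MAGEA6, MAGEA10, MAGEA12, MAGEB6, MAGEB18, MAGEC1, MAGEC2, PRAME, MAEL and XAGE2. Because a gene that is low in control cells could pass only through the group in which it was high, the share called among these 13 says nothing about the 69.

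Quisinostat raised 5 genes and lowered none, where 11.2% of all tested genes were called higher and 1.03% lower. Romidepsin raised 1 (3.77% of all tested genes higher) and lowered none (0.312%). Mivebresib raised none (3.96%) and lowered 1 (4.36%). The melanocytic markers MLANA, SOX10 and MITF lay below the control pair with quisinostat (MITF 350 ± 0.888 CPM in control and 133 ± 0.845 with quisinostat, SD, n = 2) and all 5 markers of other cells above it, and their part in these counts was not tested. Between the HDAC inhibitors, compared at the same nominal dose and time, 5 genes were higher with quisinostat (5.41%) and none lower (0.179%).

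**Figure D2:**
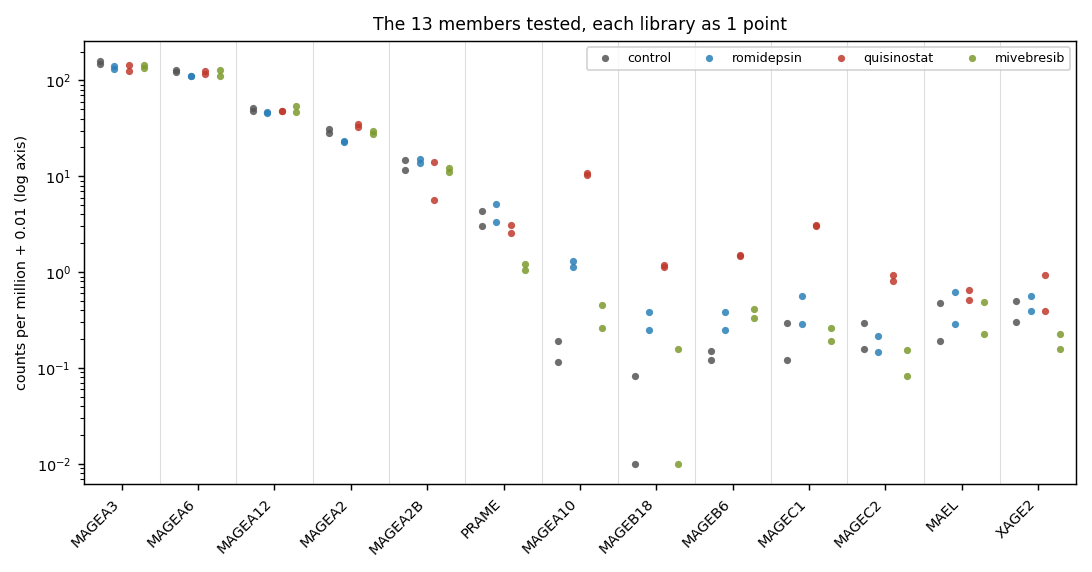
CPM plus 0.01 (log axis) of the 13 tested genes, each point being 1 library and each colour a group (2 libraries per group). MAGEA3, MAGEA6 and MAGEA12 lie at much the same height in every group, and the red quisinostat points stand above all others for MAGEA10, MAGEB18, MAGEB6, MAGEC1 and MAGEC2.

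The 5 genes detected in control cells besides PRAME were neighbours. MAGEA3, MAGEA2B, MAGEA12, MAGEA2 and MAGEA6 lie within 71 kb of the X chromosome (152698752 to 152769747 in GRCh38) and held 93.5% to 99.1% of the counts of all 69 genes in each library. Compared per length, control levels were 86.3 ± 4.82 CPM per kb of exon (SD, n = 2) for MAGEA3, 67.6 ± 2.45 for MAGEA6, 25.5 ± 1.33 for MAGEA12, 13 ± 0.753 for MAGEA2 and 5.44 ± 0.89 for MAGEA2B. No neighbours in that order overlapped. MAGEA3 stood above 96.4% and MAGEA2B above 50.8% of the 12747 genes detected in control cells that have an exon length.

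MAGEA3, whose protein activates the ubiquitin ligase TRIM28, had 4526 and 4056 counts in control cells, 4106 and 3861 with romidepsin, 4563 and 3960 with quisinostat and 3953 and 3714 with mivebresib. Its partner by sequence, MAGEA6, had 3647 and 3360, then 3200 and 3181, 3919 and 3698, and 3485 and 3055 in the same order. MAGEA12 had 1448 and 1304, 1375 and 1335, 1530 and 1493, and 1492 and 1314. In none of the 3 genes did a drug pass the test, and their log2 FC lay between -0.20 (MAGEA6, romidepsin, 95% interval -0.41 to 0.01) and 0.04 (MAGEA12, mivebresib, -0.16 to 0.25). The intervals of all 9 comparisons stayed within the limit of 1.5 on either side.

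MAGEA2 and MAGEA2B are inverted copies of one another. Of MAGEA2's 31-base transcript words 97.8% also occur in MAGEA2B, and MAGEA3 shares 71.6% of its words with other genes (67.9% with MAGEA6), so how the counts of such copies were divided is uncertain. MAGEA2 had 802 and 844 counts in control cells, 682 and 657 with romidepsin, 1029 and 1112 with quisinostat and 810 and 774 with mivebresib. MAGEA2B had 415 and 319, 438 and 401, 450 and 179, and 300 and 342. The quisinostat library with only 179 counts of MAGEA2B was the one with the most of MAGEA2. Alone, MAGEA2 fell with romidepsin by 0.36 on the log2 scale (adjusted p = 0.0157) and was 0.56 higher with quisinostat than with romidepsin (adjusted p = 0.0019). Summed with MAGEA2B, an alternative added after seeing the data, these differences were -0.19 (adjusted p = 0.123) and 0.23 (0.0671). The fall of MAGEA2 alone also missed the p threshold without either romidepsin library (0.0751 and 0.0957). Its log2 FC of 0.20 with quisinostat (adjusted p = 0.0847) became 0.40 (0.00407) when libraries were scaled by their totals alone.

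MAGEA10 changed most of the 13. It lies 560 kb from the 5 genes above (X:152133310-152138578, minus strand) and encodes a type I MAGE antigen of tumours and testis. It had 3 and 5 counts in control cells, 33 and 38 with romidepsin, 323 and 336 with quisinostat and 12 and 7 with mivebresib. All 3 drug groups lay above the control pair, with quisinostat far above romidepsin and romidepsin above mivebresib. Against control the log2 FC was 6.14 ± 0.28 (SE) with quisinostat (edgeR adjusted p = 1.88e-06) and 3.05 ± 0.37 with romidepsin (adjusted p = 0.000673). On summed counts the ratios were 72.7 (95% counting interval 36.7 to 169) and 8.49 (4.08 to 20.4). Quisinostat exceeded romidepsin by 3.09 ± 0.20 (adjusted p = 4.77e-05). With mivebresib the log2 FC of 1.24 (95% interval 0.15 to 2.32) did not pass (adjusted p = 0.062), although it did without the second mivebresib library (1.58, 0.0429). Of its transcript words 20.9% also occur in other genes, the most in the MAGEA10-MAGEA5 read-through that covers the same strand.

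Per length, MAGEA10 stood at 3.61 ± 0.116 CPM per kb of exon (SD, n = 2) with quisinostat, within the spread of MAGEA2B in the same libraries (4.12 ± 2.49). The other genes that rose were lower on this scale: MAGEB6 at 0.758 ± 0.0147, MAGEC1 at 0.714 ± 0.00296, MAGEB18 at 0.631 ± 0.0222 and MAGEC2 at 0.430 ± 0.0433. In a bulk sample a rise in the share of cells that express the gene and a rise in RNA per cell cannot be told apart.

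The 2 MAGEB genes that rose are also neighbours. MAGEB18 (X:26138343-26140735) and MAGEB6 (X:26192440-26195646) lie on the plus strand with 51.7 kb between them, and both encode little-studied MAGE proteins normally restricted to testis. MAGEB18 had 0 and 2 counts in control cells, 11 and 7 with romidepsin, 37 and 35 with quisinostat and 4 and 0 with mivebresib. Both HDAC inhibitor groups lay above the control pair, and mivebresib overlapped it. The fitted log2 FC with quisinostat was 4.83 ± 0.83 (adjusted p = 0.00145), and the ratio of summed counts to the 2 control counts was 31.8 (95% counting interval 8.48 to 267). With romidepsin the ratio was 8.61 (2.06 to 76.5) and the test did not pass (adjusted p = 0.0631), although it did with DESeq2 (0.0494) and without the second control library (0.0269). The difference of 1.87 ± 0.55 between quisinostat and romidepsin passed (adjusted p = 0.0296) but not with DESeq2 (0.0548), nor without any 1 of those 4 libraries (0.0852 to 0.154).

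MAGEB6 had 4 and 3 counts in control cells, 11 and 7 with romidepsin, 46 and 47 with quisinostat and 11 and 9 with mivebresib. No drug group overlapped the control pair, and quisinostat stood apart from the rest. Its log2 FC was 3.51 ± 0.39 with quisinostat (adjusted p = 0.000139) and 2.24 ± 0.33 higher than with romidepsin (adjusted p = 0.00146). With mivebresib it was 1.496 ± 0.493 (adjusted p = 0.0354), just short of the fold limit and so not called, and that p rose past 0.05 with DESeq2 (0.106) and on leaving out any library of the comparison (0.0639 to 0.129). With romidepsin the log2 FC was 1.27 (95% interval 0.12 to 2.42, adjusted p = 0.0879). MAGEB5, the next gene along at X:26216169-26218270, had no count in any library.

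MAGEC1 and MAGEC2 lie 293 kb apart on the long arm, and encode the antigens also called CT7 and CT10. MAGEC1 (X:141903894-141909388, plus strand) had 8 and 3 counts in control cells, 16 and 8 with romidepsin, 96 and 96 with quisinostat and 5 and 7 with mivebresib. MAGEC2 (X:142202345-142205290, minus strand) had 8 and 4, 6 and 4, 29 and 25, and 2 and 4. For both genes only the quisinostat pair stood above the control pair. MAGEC1 rose with quisinostat by a log2 FC of 3.92 ± 0.41 (adjusted p = 9.24e-05) and exceeded its romidepsin level by 2.87 ± 0.35 (adjusted p = 0.000636). MAGEC2 rose by 1.97 ± 0.43 (adjusted p = 0.005) and exceeded romidepsin by 2.29 ± 0.45 (adjusted p = 0.00513).

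Romidepsin passed the test for neither MAGEC gene. The log2 FC was 1.05 for MAGEC1 (95% interval -0.19 to 2.28, adjusted p = 0.172) and -0.32 for MAGEC2 (-1.63 to 0.99, adjusted p = 0.703). MAGEC3, which ends just upstream of MAGEC1 on the same strand, had a single count in 8 libraries.

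**Figure D3:**
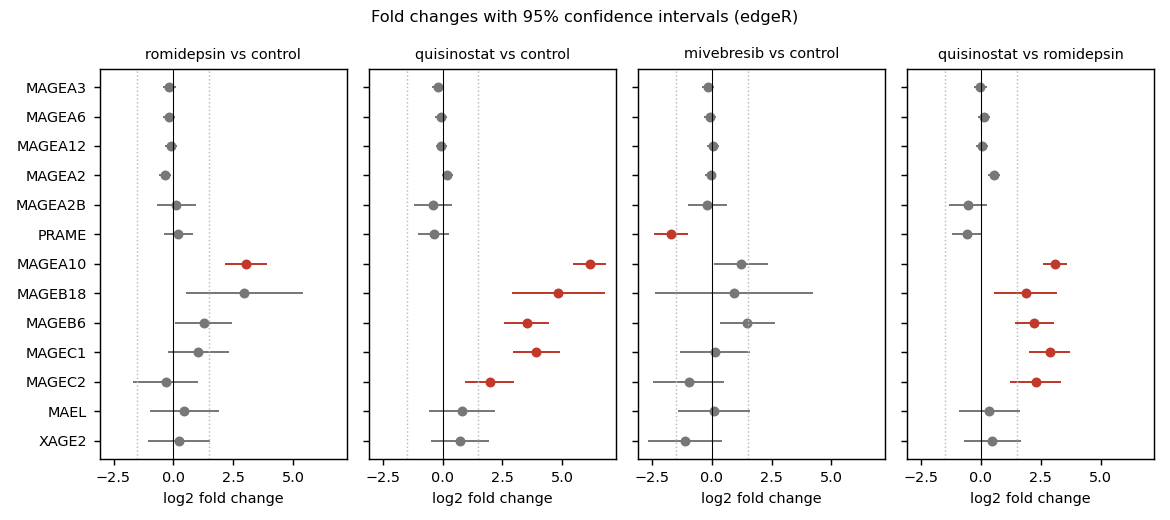
Log2 fold change (point) with its 95% confidence interval (line) of the 13 tested genes in 4 comparisons, from edgeR, red where the adjusted p was below 0.05 and the fold change beyond the dotted lines at 1.5. MAGEA10, MAGEB18, MAGEB6, MAGEC1 and MAGEC2 are red in the quisinostat panel, MAGEA10 alone in the romidepsin panel, and PRAME is the red point below 0 with mivebresib.

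PRAME moved the other way. It lies on chromosome 22 (22547701-22559361, minus strand), where a second annotated locus overlaps it on the opposite strand. Its counts were 85 and 118 in control cells, 148 and 97 with romidepsin, 81 and 97 with quisinostat, and 33 and 29 with mivebresib. The mivebresib pair lay below all other libraries, whereas both HDAC inhibitor pairs overlapped the control. The log2 FC with mivebresib was -1.70 ± 0.30 (adjusted p = 0.0019), and without the second control library it was -1.42, still past the p threshold but short of the fold limit. With romidepsin it was 0.20 (95% interval -0.37 to 0.78, adjusted p = 0.567) and with quisinostat -0.37 (-0.96 to 0.22, adjusted p = 0.256). Of the 6 melanocytic markers 5 also lay below the control pair with mivebresib: SOX10 went from 209 ± 10.3 to 55 ± 3.12 CPM (SD, n = 2), MITF from 350 ± 0.888 to 126 ± 3.14 and MLANA from 206 ± 19.2 to 81.8 ± 2.28. Their part in the fall of PRAME was not tested. The control level of PRAME, 0.97 ± 0.243 CPM per kb (n = 2), was far below the MAGEA cluster and above 20% of detected genes. The study counts MP41 and MP46 as lines that express PRAME and MP38 as one that does not. The fall seen here is thus from a low level in a line that the study takes as negative. The study also reports that HDAC and BET inhibitors lowered PRAME in uveal melanoma cells, and cites a figure of MP38 among others. In these MP38 libraries neither HDAC inhibitor passed the test for PRAME.

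MAEL and XAGE2 passed the filter but no test. MAEL, a piRNA pathway protein that silences transposons in germ cells, had 13 and 5 counts in control cells, 18 and 8 with romidepsin, 16 and 20 with quisinostat and 13 and 6 with mivebresib. Its log2 FC with quisinostat was 0.81 (95% interval -0.50 to 2.13, adjusted p = 0.263). XAGE2 had 14 and 8, 16 and 11, 12 and 29, and 4 and 6 in the same order. The mivebresib pair of XAGE2 lay below the control pair, at a log2 FC of -1.11 (-2.61 to 0.39, adjusted p = 0.2).

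Start sites were compared over a window from 250 bases before to 50 after each RefSeq start, of which 57 of the 69 genes had at least 1 (78 starts). Where a gene had several, the start with the most CpG was used. The median was 17 CpG in the 6 genes detected in control cells (range 13 to 19), 10.5 in 6 of the 7 detected only with a drug, all but MAGEA10 (7 to 60, the highest being MAEL), and 12.5 in the 40 that never exceeded 3 counts (1 to 33). MAEL and XAGE2 fell in the drug-only class by the 10-count rule, with 13 and 14 counts in the first control library, and passed no test. All 27305 genes with a start had a median of 16. The classes overlapped, their members share ancestry, and no test was made.

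**Figure D4:**
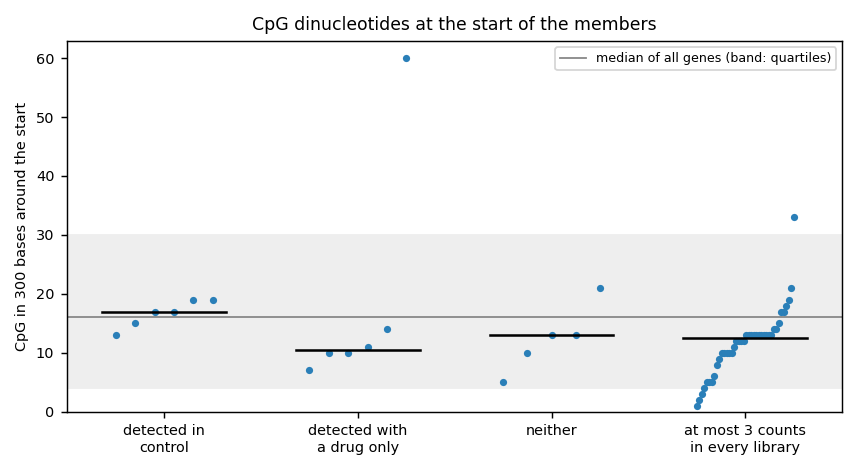
CpG dinucleotides in 300 bases around the start (vertical axis) for the 57 genes with a RefSeq start, each point being 1 gene, by where the gene was detected. The short black lines are class medians (17, 10.5, 13 and 12.5), the grey line is the median of all 27305 genes (16) and the band their quartiles (4 to 30).

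Of 2 short motifs searched on both strands, CCGGAA, a core recognised by ETS factors, was in 10.3% of the 78 starts and 17.2% of the starts of all genes. It lay in the windows of MAGEA3, MAGEA6, PRAME, MAGEB6, MAEL, MAGEB16 and TEX101. CACGTG, the E-box of MYC and its partners, was in 26.9% against 7.26%, mostly in the repeated GAGE and PAGE copies, which are not independent of one another.

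The other genes of these pathways came from 3 lists of symbols. The type II MAGE genes, relatives that normal tissues also express, had 11 tested members of 12 in the table. Quisinostat raised 3 of them past both limits (11.2% of all genes), at a median log2 FC of 0.70 against -0.0036 for all tested genes, and romidepsin raised 2 (3.77%), at a median of 0.41 against -0.01. None passed both limits with mivebresib, where the median was -0.36 against 0.01. MAGEL2 and MAGEE2, both called with quisinostat and MAGEL2 also with romidepsin, each had 1 and 2 counts in control cells. They could pass the filter on low counts only through HDAC inhibitor groups, in which they were high. The shares and medians with these inhibitors therefore say nothing about all 12 genes. TRO, which encodes trophinin, had 29 and 46 counts in control cells, 211 and 188 with romidepsin, 382 and 468 with quisinostat and 28 and 30 with mivebresib. Its log2 FC was 3.32 ± 0.22 with quisinostat (adjusted p = 7.94e-06) and 2.34 ± 0.22 with romidepsin (adjusted p = 0.000227).

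MAGEL2, an imprinted gene of the Prader-Willi region, had 1 and 2 counts in control cells, 21 and 22 with romidepsin, 44 and 37 with quisinostat and 0 and 1 with mivebresib. The ratio of summed counts was 23.8 (95% counting interval 7.87 to 118) with quisinostat and 13.7 (4.39 to 69.1) with romidepsin, and both passed the test (adjusted p = 0.000162 and 0.00209). MAGEE2 had 1 and 2 counts in control cells and 18 and 11 with quisinostat, a ratio of 8.53 (2.64 to 43.8, adjusted p = 0.00826). For TRO and MAGEL2 both HDAC inhibitor pairs stood clear of the control.

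Among 43 other germline and cancer-testis genes, 16 were tested. Quisinostat raised 4 and lowered none (11.2% and 1.03% of all tested genes), at a median log2 FC of 0.35 against -0.0036 for all. Romidepsin raised 2 and lowered none (3.77% and 0.312%), at a median of -0.07 against -0.01. Mivebresib raised 2 and lowered 1 (3.96% and 4.36%), at a median of 0.39 against 0.01. The others had too few counts for a test, and low genes such as PASD1 and SPANXB1 reached 10 counts with quisinostat alone, so these shares say nothing about the 43. TEX15, needed for piRNA-directed silencing in male germ cells, went from 75 and 67 counts in control cells to 313 and 308 with romidepsin, 395 and 442 with quisinostat and 111 and 123 with mivebresib. Its log2 FC was 2.38 ± 0.13 with quisinostat (adjusted p = 3.94e-06) and 2.06 ± 0.13 with romidepsin (adjusted p = 6.08e-05). PASD1, a cancer-testis antigen that represses the circadian clock, had 0 and 1 counts in control cells and 16 and 15 with quisinostat, a ratio of 27.4 (4.56 to 1120, adjusted p = 0.00569), and none with romidepsin.

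TEX19, a transposon-restricting protein, had 7 and 9 counts in control cells and 45 and 36 with quisinostat (log2 FC 2.14 ± 0.37, adjusted p = 0.00154). SPANXB1, a sperm protein, had 4 and 2 and then 16 and 13 (log2 FC 2.05 ± 0.64, adjusted p = 0.0256). The other calls were SYCP3, higher with romidepsin and mivebresib, TEX14, higher with mivebresib, and DMC1, lower with mivebresib; they are named after their values were seen. BRDT, the testis-specific BET protein, had at most 2 counts in any library. CTCFL, the testis paralogue of the insulator protein CTCF, had 11 and 8 counts in control cells and 21 and 26 with mivebresib (log2 FC 1.31 ± 0.40, adjusted p = 0.0263, within the fold limit).

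All 26 genes of a list of DNA methylation and repressor components that act on germline genes were tested. UHRF1, which brings DNMT1 to newly copied DNA, was the only one past both limits. It was lower with both HDAC inhibitors (1.03% of all tested genes lower with quisinostat and 0.312% with romidepsin). It had 887 and 975 counts in control cells, 355 and 281 with romidepsin, 224 and 193 with quisinostat and 463 and 466 with mivebresib. Its log2 FC was -2.34 ± 0.14 with quisinostat (adjusted p = 4.86e-06), -1.61 ± 0.13 with romidepsin (adjusted p = 0.000124) and -0.99 ± 0.13 with mivebresib (adjusted p = 0.000347).

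DNMT1, the maintenance DNA methyltransferase, had 3129 and 3727 counts in control cells, 2384 and 2384 with romidepsin, 1680 and 1794 with quisinostat and 2918 and 2974 with mivebresib. It fell by 1.16 on the log2 scale with quisinostat (adjusted p = 4.22e-05) and by 0.59 with romidepsin (adjusted p = 0.00363). By adjusted p alone 14 of the 26 were lower and 1 higher with quisinostat (25.1% and 28% of all genes), 7 and 1 with romidepsin (15.8% and 15.2%) and 7 and 1 with mivebresib (24.1% and 22.2%). The part of these genes in the levels of the cancer-testis genes was not tested.

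**Figure D5:**
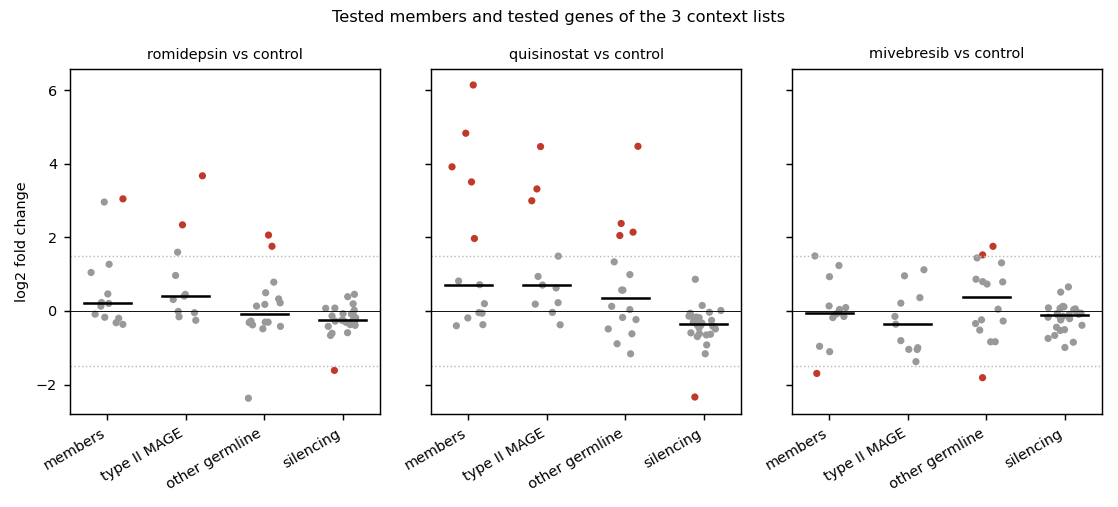
Log2 fold change against control of the tested members and of the tested genes of the 3 lists (type II MAGE, other germline genes, silencing components), each point being 1 gene, with the median as a black line and red for genes past both limits. The 5 red members of the quisinostat panel reach 6.14, beside 3 red type II MAGE genes, 4 other germline genes and UHRF1 below 0.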

How the data were processed

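The mRNA of MP38 cells was sequenced as strand-specific paired-end libraries, 2 per group. The authors deposited read counts per gene symbol, analysed through the BioJupies platform per the study's methods. The build is hg38 per the submitters' processing notes, and the aligner, annotation and strand setting are not given in the sources used here. The log-scale and quantile-normalised tables were not used. The members and gene lists were chosen with earlier results of these data known.

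Members were matched by symbol, and every member was accounted for. Library values are given for those with 10 or more counts in both libraries of a group, full statistics for those called against control, and from each list at most the 4 called genes of largest change, plus DNMT1, CTCFL and BRDT. All 8 libraries entered 1 edgeR 4.0.16 fit (R 4.3.3, quasi-likelihood F test, TMM factors 0.939 to 1.09, filterByExpr), and p was adjusted over 15085 genes. CPM use the TMM-scaled library size. The SE is the log2 FC divided by the square root of F. The limits for a call (0.05 for the adjusted p, 1.5 for the log2 FC in either direction) were those of the study's methods. On simulated counts for quisinostat against control over 15085 genes, 99% of 200 genes changed by 2 on the log2 scale were recovered, with 1 false call. The changed genes had a mean CPM of at least 1, and every gene was given the same spread between libraries. The recovery therefore does not cover the lower genes MAGEB18, MAGEB6, MAGEC1 and MAGEC2. Intervals of count ratios are exact binomial. Exon lengths and 31-base words came from GENCODE 29, and upstream sequences from RefSeq (GRCh38.p14). Alternatives used DESeq2 1.42.0, limma 3.58.1 (voom), other scalings, filters and thresholds, a replicate block and each library left out.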

Additional observations from a re-analysis of the deposited data

How the results depend on the processing

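Counts of called members moved under some alternatives. Against romidepsin's 1 higher member, DESeq2 gave 2 (MAGEB18 added), while all genes called higher went from 569 to 534. For mivebresib the higher count of 0 became 1 (MAGEB6) with library size alone, upper-quartile factors, adjusted p alone or a log2 FC beyond 1. All genes called higher were 616, 634, 3342 and 1104 in that order, against 598. Requiring a mean CPM of at least 1, on library totals without TMM factors, kept 2 of the 5 higher with quisinostat. The same 2 of the 5 were kept against romidepsin (MAGEA10 and MAGEC1), because the other 3 were then not tested. Among all genes the calls went from 1689 to 1004 with quisinostat and from 816 to 414 against romidepsin. The lower count with romidepsin became 1 (MAGEA2) by adjusted p alone (15.8% of all tested genes). Leaving out each library in turn, higher members numbered 1 to 2 with romidepsin, 5 to 5 with quisinostat, 0 to 1 with mivebresib and 4 to 4 for quisinostat against romidepsin (MAGEB18 lost each time), and lower members 0 to 1 with mivebresib and 0 to 0 in the other comparisons. Under that looser rule members turned on ranged from 2 to 3 with quisinostat, 0 to 1 with romidepsin and 0 to 0 with mivebresib. The shares of all rows silent in the control were then 2.38% to 2.63%, 0.598% to 0.7% and 0.348% to 0.576%. Limits of 1 and 5 counts left 0 turned on with quisinostat, against 2.08% of all rows silent by that limit. The limit of fewer than 10 control counts, added after seeing the data, gave 5 with quisinostat (4.31% of all such rows) and 1 with romidepsin (1.65%).

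Directions reversed only where no test passed. MAGEA2 with mivebresib was 0.0020 with upper-quartile factors. Over the libraries left out in turn the log2 FC ran from -0.089 to 0.016 for MAGEA2, -0.37 to 0.98 for MAGEC1 and -3.24 to 4.17 for MAGEB18 with mivebresib, and from -0.71 to 0.25 for MAGEC2 and -0.13 to 0.48 for PRAME with romidepsin. Same-numbered libraries of control, quisinostat and mivebresib deviated together (correlations 0.184 to 0.356), but those of romidepsin deviated against all 3 (-0.407 to -0.18), so the numbers were not taken as pairs. The replicate block left 1, 5 and 0 members higher and 0, 0 and 1 lower with romidepsin, quisinostat and mivebresib, and 5 higher and 0 lower for quisinostat against romidepsin, as without it, and so did a block with the romidepsin numbers crossed, added after seeing the data. Where a library was left out, its lone partner was assumed to vary like the other groups. With 2 wells per group of 1 line, at 10 or fewer counts per library a change could be estimated only within wide intervals.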
